A study of Rattus norvegicus with 12 samples.

Results

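Csad encodes cysteine sulfinic acid decarboxylase, the enzyme that makes hypotaurine on the way to taurine, and it was followed here in rat liver together with 7 other genes that supply it, duplicate its reaction or carry its product. The 8 genes were Csad, Cdo1, Cth, Cbs, Gadl1, Slc6a6, Mat1a and Bhmt. Each was represented by the probe set that carried its symbol and no other, and 7 of the 8 had such a probe set, out of 13215 genes named on the arrays. Gadl1 had none and was not analysed here. Csad was picked because its level was lower with both drugs than in controls, so its differences from control describe the choice and were not tested. The other genes were listed for their place in the pathway, with results of these data already known.

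Livers came from 12 Sprague Dawley rats, kept 1 to a cage with free food and water under a daily light cycle, and each rat gave 1 whole-transcript array. Of these, 4 rats ate for 7 days a diet with NO-naproxen at 550 mg/kg, the anti-inflammatory drug naproxen carrying a group that releases nitric oxide. Another 4 received naproxen itself, at 400 mg/kg of diet, which blocks the cyclooxygenase enzymes, and 4 controls ate the diet without drug. The doses of the drugs differ, and neither rat sex nor age was given in the labels used here.

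Liver is a main site of taurine synthesis in rats. Methionine is activated to S-adenosylmethionine by the product of Mat1a, its methyl group is given away, and the homocysteine left over is either methylated again, by Bhmt among others, or passed through Cbs and Cth to cysteine. Cysteine is oxidised by Cdo1 to cysteine sulfinic acid, Csad removes the carboxyl group, and the hypotaurine formed is oxidised to taurine. In liver taurine is joined to bile acids to form bile salts, and Slc6a6 is the sodium-dependent transporter that brings taurine into cells. In mice, hepatic Csad is known to be repressed by bile acids.

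The start regions of the 2 measured genes that stood furthest from control, Csad and Slc6a6, are printed because the same diets gave them opposite signs. Each sequence runs 5′ to 3′ along the gene, from 250 bases before to 50 bases after the annotated start in RefSeq's build GRCr8. The Csad window is chr7:135215532-135215831 on the minus strand and that of Slc6a6 is chr4:125752252-125752551 on the plus strand. Capitals mark matches, on either strand, to 4 short words: AGGTCA, the half-site of many nuclear receptors, CACGTG, the E-box, GGGCGG, the GC box, and TATAAA, the TATA box.
Csad: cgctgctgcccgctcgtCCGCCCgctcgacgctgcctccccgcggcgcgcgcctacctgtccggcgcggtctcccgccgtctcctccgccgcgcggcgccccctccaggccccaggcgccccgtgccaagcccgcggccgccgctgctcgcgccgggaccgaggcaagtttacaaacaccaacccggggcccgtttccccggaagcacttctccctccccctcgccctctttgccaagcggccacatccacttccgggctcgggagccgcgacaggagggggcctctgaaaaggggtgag
Slc6a6: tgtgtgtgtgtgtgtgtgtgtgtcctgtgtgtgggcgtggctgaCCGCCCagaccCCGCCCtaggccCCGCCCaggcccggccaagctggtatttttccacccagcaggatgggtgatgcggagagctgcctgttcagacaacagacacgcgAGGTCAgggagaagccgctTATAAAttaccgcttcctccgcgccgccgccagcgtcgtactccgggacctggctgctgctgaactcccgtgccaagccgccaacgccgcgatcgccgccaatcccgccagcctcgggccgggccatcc

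The Csad window held 1 match, a GC box on the opposite strand with its first base at -233, and its bases were 75.0% G or C. The Slc6a6 window held 5: GC boxes at -206, -195 and -183 on the opposite strand, the half-site AGGTCA at -98 and TATAAA at -79. None of the marked words overlapped. Of 33469 RefSeq promoter windows of this length, 33.1% held a GC box, 16.2% the half-site, 14.2% the TATA word and 6.42% the E-box. Among the members, 6 had a window, and the half-site was found in those of Slc6a6 and Bhmt, the E-box in that of Cth.

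Csad (Entrez Gene 60356) was the member with the lowest level relative to controls on both drug diets. Its probe set intensity was 573, 848, 445 and 492 in the 4 livers of NO-naproxen-fed rats, 428, 584, 534 and 1107 in those of naproxen-fed rats, and 1601, 1427, 1276 and 1035 in controls. All 4 NO-naproxen livers lay below all 4 controls, as they did for 1.35% of all probe sets. With naproxen 3 livers lay below every control, and replicate 4, at 1107, lay above the lowest control at 1035. On the log2 scale, after adding 16 to each intensity, the means were 9.20 ± 0.40 with NO-naproxen, 9.31 ± 0.58 with naproxen and 10.38 ± 0.26 in controls (SD, n = 4 each). The log2 difference from control was -1.18 ± 0.27 (SE) with NO-naproxen, which is 2.27-fold lower, and -1.07 ± 0.27 with naproxen, 2.09-fold lower.

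Both differences share the same control livers, and both are the values by which Csad was chosen. Of all 19418 probe sets, 65 had a log2 difference at or below that of Csad with NO-naproxen and 101 with naproxen. The spread of Csad among the drug-fed rats was wide: the highest NO-naproxen liver, replicate 2, stood at 848 and the lowest, replicate 3, at 445. Without naproxen replicate 4 the naproxen difference was -1.34, and without naproxen replicate 1 it was -0.89. In whole liver, fewer cells of a type and less RNA per cell cannot be told apart.

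**Figure D1:**
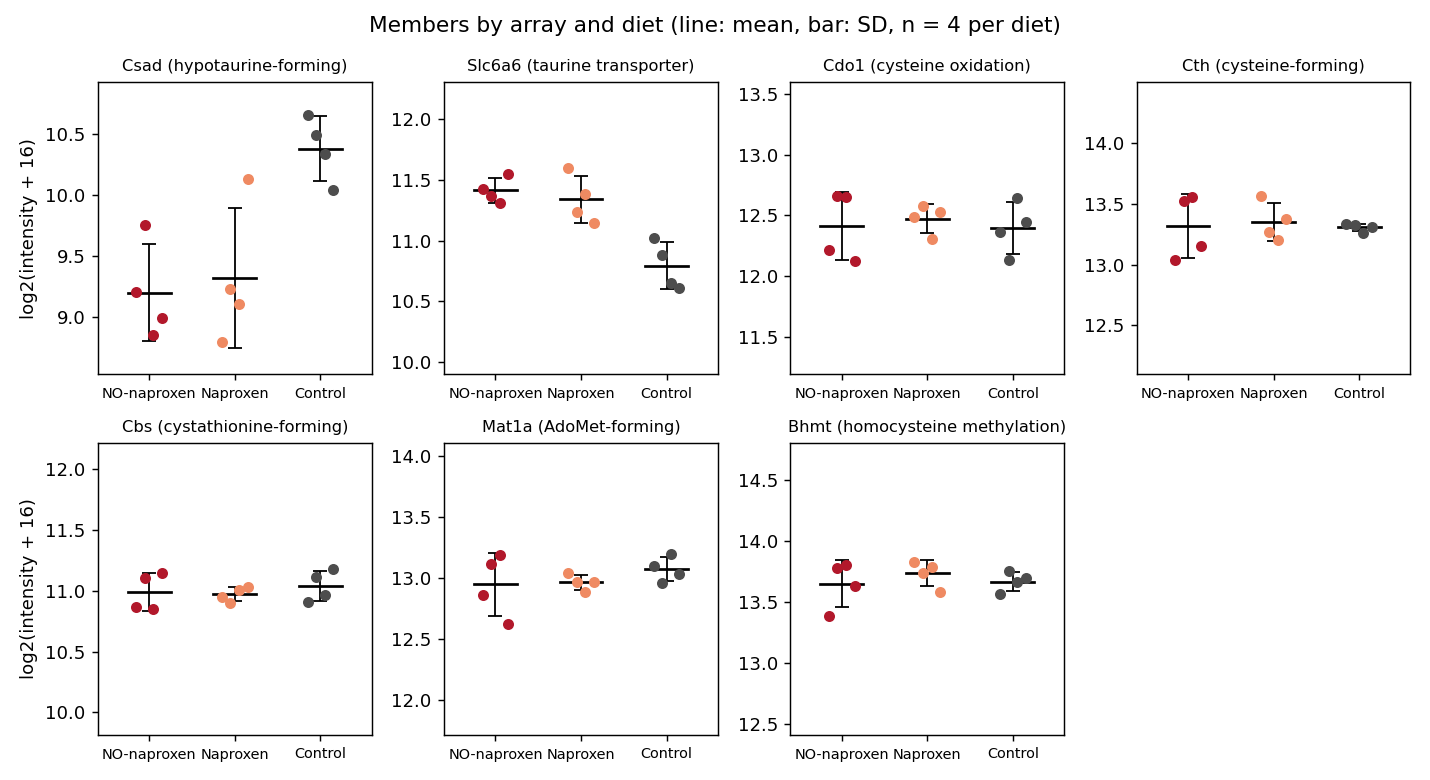
Level of each measured member in every liver, as log2(intensity + 16), with diets along the horizontal axis; points are arrays, lines are means and bars are SD (n = 4 per diet), and every panel spans 2.4 log2 units. Csad lies low and Slc6a6 high in drug-fed livers, while the diets overlap for the other 5 genes.

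Slc6a6 (Entrez Gene 29464), the taurine transporter, had the opposite sign. Its intensity was 2733, 2629, 2526 and 2973 with NO-naproxen, 3075, 2388, 2649 and 2250 with naproxen, and 2058, 1875, 1595 and 1546 in controls. Every drug-fed liver lay above every control. The log2 means were 11.41 ± 0.10 with NO-naproxen, 11.34 ± 0.20 with naproxen and 10.79 ± 0.19 in controls (SD, n = 4 each). The difference from control was 0.62 ± 0.16 (SE; 95% interval 0.28 to 0.97), or 1.54-fold, with NO-naproxen and 0.55 ± 0.16 (0.20 to 0.89), or 1.46-fold, with naproxen.

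Neither Slc6a6 difference passed limma after Benjamini-Hochberg adjustment over all probe sets (adjusted p = 0.468 with NO-naproxen and 0.381 with naproxen). Groups that did not overlap in the higher direction were found for 2% of all probe sets with NO-naproxen and 2.09% with naproxen. The study selected genes at an unadjusted p under 0.05 with at least 1.5-fold change. By that criterion Slc6a6 passed with NO-naproxen, where 1.78% of probe sets did so in the higher direction, and missed the fold with naproxen, where 0.875% did. Those shares moved with the scaling, to 1.6% with NO-naproxen and 1.91% with naproxen after quantile normalization, and to 3.25% with NO-naproxen and 2.38% with naproxen after median centring. The NO-naproxen call was lost after quantile normalization (log2 difference 0.51) and without NO-naproxen replicate 4 (0.58), control replicate 3 (0.58) or control replicate 4 (0.56). With naproxen Slc6a6 passed after median centring (0.66) and without naproxen replicate 4 (0.61) or control replicate 1 (0.62).

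Signals were spread more widely on the drug arrays, where the interquartile range averaged 2.36 ± 0.23 on the log2 scale with NO-naproxen and 2.34 ± 0.16 with naproxen against 2.10 ± 0.19 in controls (SD, n = 4 each). With that spread as a covariate the Slc6a6 difference was 0.50 with NO-naproxen and 0.43 with naproxen, and without the 2 arrays of narrowest spread, control replicates 3 and 4, it was 0.46 with NO-naproxen and 0.39 with naproxen. Both settings ended the NO-naproxen call by the study's criterion, and without those arrays the unadjusted limma p with naproxen was 0.0738. The Csad difference was -1.28 with NO-naproxen and -1.16 with naproxen under the covariate, and -1.38 with NO-naproxen and -1.26 with naproxen without those arrays. Median intensity per array lay between 89.8 and 118 over the 12 arrays.

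Markers of other liver cells stood beside these values. The 6 measured macrophage markers, all above the range of olfactory and vomeronasal receptor probe sets (genes of the nose, taken as a background level), summed to an intensity of 3647 to 5747 with NO-naproxen, 3367 to 4862 with naproxen and 2982 to 4305 in controls. The 5 measured stellate cell markers, also all above that range, summed to 2326 to 3075 with NO-naproxen, 2248 to 2886 with naproxen and 1775 to 2668 in controls. The 2 endothelial markers measured, Clec4g and Oit3, summed to 790.6 to 1025 with NO-naproxen, 1003 to 1068 with naproxen and 654.9 to 901.5 in controls. Of the 2 cholangiocyte markers, Epcam lay in the olfactory range and Krt19 just above it, and their sum was 129.8 to 143.8 with NO-naproxen, 138.2 to 175.9 with naproxen and 124.5 to 161.2 in controls. The highest drug-fed livers exceeded the highest control for the macrophage, stellate and endothelial sums on both diets. The part of these cells in the Slc6a6 and Csad values was not tested. Hepatocyte markers (6 measured, among them Alb and Ttr, all above the olfactory range) summed to 52550 to 62910 with NO-naproxen, 50870 to 56420 with naproxen and 51920 to 58720 in controls, so the samples carried the defining transcripts of liver.

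Cdo1 (Entrez Gene 81718), the cysteine dioxygenase that makes the substrate of Csad, lay near control on both diets. Its intensity was 4729, 6458, 6395 and 4456 with NO-naproxen, 5719, 6095, 5046 and 5874 with naproxen, and 5253, 4471, 6375 and 5572 in controls. The 3 diets overlapped, and the control livers alone spanned 4471 to 6375. The log2 difference from control was 0.02 ± 0.18 (SE; 95% interval -0.36 to 0.39; limma adjusted p = 0.970) with NO-naproxen and 0.08 ± 0.18 (-0.30 to 0.45; adjusted p = 0.859) with naproxen.

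Cbs (Entrez Gene 24250) and Cth (Entrez Gene 24962), the enzymes that carry sulfur from homocysteine to cysteine, lay close to control on both diets. Cbs measured 1846, 2181, 1833 and 2257 with NO-naproxen, 1958, 1897, 2040 and 2074 with naproxen, and 1902, 2194, 1980 and 2300 in controls. Its log2 difference was -0.05 ± 0.15 (95% interval -0.36 to 0.27) with NO-naproxen and -0.07 ± 0.15 (-0.38 to 0.25) with naproxen, and both signs turned after median centring, to 0.02 with NO-naproxen and 0.05 with naproxen. Cbs groups overlapped on all diets.

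Cth measured 8380, 11766, 12044 and 9087 with NO-naproxen, 12088, 9859, 9434 and 10590 with naproxen, and 10311, 10224, 9803 and 10108 in controls. The SD of the log2 level was 0.03 in controls and 0.26 with NO-naproxen (n = 4 each), with 2 above and 2 below every control. The log2 difference was 0.01 ± 0.16 (95% interval -0.34 to 0.36; limma adjusted p = 0.975) with NO-naproxen and 0.05 ± 0.16 (-0.30 to 0.40; adjusted p = 0.911) with naproxen.

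Mat1a (Entrez Gene 25331), the liver form of methionine adenosyltransferase, measured 7404, 8871, 9316 and 6300 with NO-naproxen, 8394, 7994, 7542 and 8008 with naproxen, and 8743, 7956, 9352 and 8344 in controls. Replicates 1 and 4 of NO-naproxen and replicate 3 of naproxen lay below every control, and the groups overlapped. Its log2 difference was -0.12 ± 0.16 (95% interval -0.46 to 0.22) with NO-naproxen and -0.11 ± 0.16 (-0.45 to 0.24) with naproxen, neither past limma (adjusted p = 0.711 with NO-naproxen and 0.774 with naproxen).

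Bhmt (Entrez Gene 81508), which remethylates homocysteine with betaine, measured 10674, 14053, 14254 and 12691 with NO-naproxen, 14553, 13668, 14163 and 12259 with naproxen, and 12091, 13802, 12942 and 13246 in controls. The groups overlapped on both diets. Its log2 difference was -0.02 ± 0.15 (95% interval -0.34 to 0.31; limma adjusted p = 0.958) with NO-naproxen and 0.07 ± 0.15 (-0.26 to 0.39; adjusted p = 0.857) with naproxen.

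**Figure D2:**
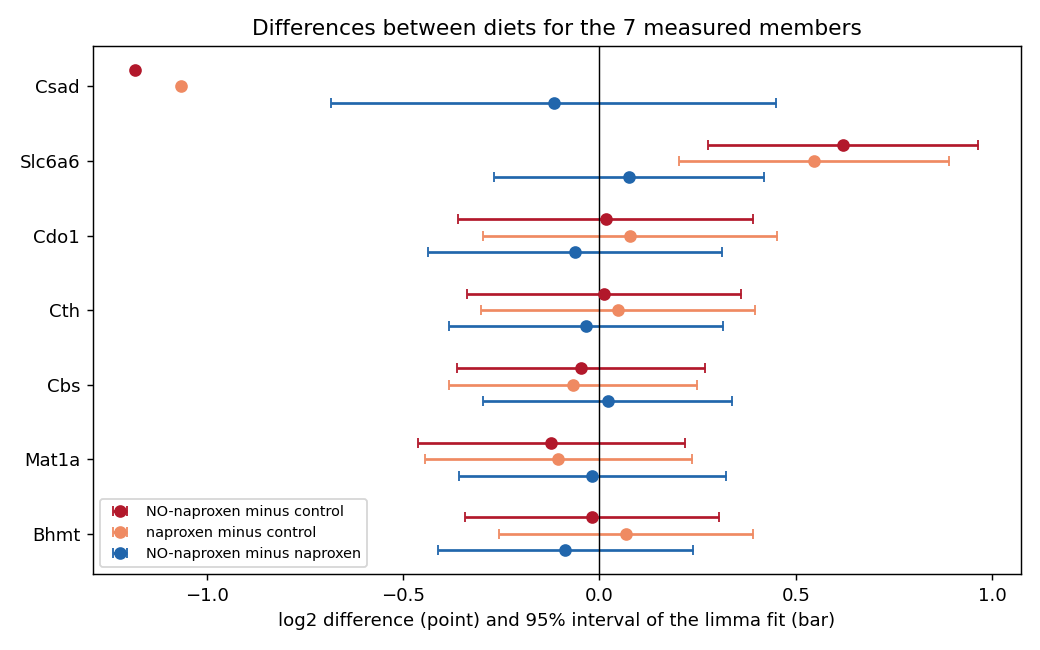
Log2 difference between diets for each measured member, with the 95% interval of the limma fit as a bar; the 2 Csad points against control carry no bar because they chose the gene. Slc6a6 intervals against control lie above 0, from 0.28 to 0.97 and from 0.20 to 0.89, and those of Cdo1, Cth, Cbs, Mat1a and Bhmt include 0.

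None of the 6 other measured members passed a test in the direction of Csad, whose own differences from control were not tested. With 6 genes, and shares of all probe sets as low as those given here, this does not set the members apart from other genes. Of the 6 other measured members, 0 passed the study's criterion in the lower direction on either diet, where 2.02% of all probe sets did so with NO-naproxen and 4.97% with naproxen. After median centring these shares were 1.37% with NO-naproxen and 2.49% with naproxen, and lower calls made up 29.6% of the calls with NO-naproxen and 51.1% with naproxen, where the values as deposited gave 53.1% with NO-naproxen and 85% with naproxen. After quantile normalization lower calls made up 53.2% with NO-naproxen and 61.9% with naproxen. In limma 0 members passed the adjusted threshold, as did 0% of all probe sets in both comparisons. An unadjusted limma p under 0.05 was met by 10.4% of probe sets with NO-naproxen and 12.7% with naproxen. Of the 6 other measured members only Slc6a6 met it, on both diets and higher. With naproxen Slc6a6 no longer met it once the 2 arrays of narrowest spread were left out. The median log2 difference of the 7 measured members was -0.02 with NO-naproxen and 0.05 with naproxen, and that of all probe sets was 0.00 with NO-naproxen and -0.03 with naproxen.

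The diets with the 2 drugs were also set against each other, a contrast that played no part in choosing Csad. Csad differed by -0.12 ± 0.27 log2 units, NO-naproxen minus naproxen (SE; 95% interval -0.68 to 0.45; limma adjusted p = 1.000), and by 0.16 without naproxen replicate 4. Slc6a6 differed by 0.07 ± 0.16 (-0.27 to 0.42). The other 5 differences lay between -0.09 for Bhmt and 0.02 for Cbs. No member passed the study's criterion, which 0.572% of probe sets met, an unadjusted p under 0.05, met by 1.92%, or the adjusted threshold, which 0% met. The doses differ, and the interval of Csad leaves room for a difference of 0.68 log2 units in the lower direction.

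Whether livers with less Csad also had less of another member was asked within diets, from deviations of each liver from its own diet mean, which the choice of Csad did not use. Pearson's r of Csad with the 6 other members over the 12 livers lay between -0.37 for Bhmt and 0.13 for Cbs. For Slc6a6 r was -0.25 and Spearman's rho -0.19 (2-sided exact permutation within diets, p = 0.526 and p = 0.614, adjusted over these 6 relations to 0.930 for r and 0.966 for rho). For Bhmt rho was -0.45, with an exact permutation p of 0.280 for r and 0.187 for rho and the same adjusted values. Cdo1 gave r = 0.13 and rho = 0.02 (exact permutation p = 0.702 and 0.966, adjusted 0.930 and 0.966). Cth gave r = 0.03, Cbs 0.13 and Mat1a 0.10, with exact permutation p of 0.930, 0.692 and 0.805, each adjusted to 0.930. Their rho was -0.04, 0.08 and -0.03, with exact permutation p of 0.919, 0.830 and 0.926, each adjusted to 0.966. The 2 livers whose Csad deviation lay farthest from the median deviation were NO-naproxen replicate 2 and naproxen replicate 4. Without them r was -0.27 for Cdo1, -0.41 for Cth, -0.29 for Cbs, 0.15 for Slc6a6, -0.18 for Mat1a and -0.54 for Bhmt. The diet means were not taken anew, so these r values are not purely within diets. The first 5 signs turned without those livers.

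Neighbouring steps outside the members were read from 5 lists, chosen for their place around the pathway, in which no gene passed the study's criterion or the adjusted threshold against control in either comparison. The share of probe sets past the criterion in either direction was 3.8% with NO-naproxen and 5.85% with naproxen. Of the methionine cycle and methyl transfer list, 15 of 21 genes were measured, 14 of them above control with NO-naproxen (median log2 difference 0.12) and 10 with naproxen (median 0.12). Among all probe sets 50.1% lay above control with NO-naproxen and 45.9% with naproxen. Of all probe sets 38% lay in the olfactory range, and of the 15 genes 0, so these shares come from features of unlike brightness. After quantile normalization 6 of 15 lay above control with NO-naproxen (median -0.00) and 10 with naproxen (median 0.02), so the first count turned with the scaling. After median centring 14 lay above control on each diet, where 57.9% of all probe sets did with NO-naproxen and 59.2% with naproxen. Mtrr, which keeps methionine synthase active, measured 294.9 to 501.8 with NO-naproxen, 281.2 to 467.1 with naproxen and 228.2 to 392.7 in controls, and its groups overlapped. Chdh, which makes betaine aldehyde from choline, had log2 differences of 0.27 ± 0.18 (SE) with NO-naproxen and 0.30 ± 0.18 with naproxen. Mat2a, the methionine adenosyltransferase of most tissues other than liver, had 0.36 ± 0.23 with NO-naproxen and 0.30 ± 0.23 with naproxen, and Dmgdh, the dimethylglycine dehydrogenase downstream of Bhmt, 0.30 ± 0.20 with NO-naproxen and 0.22 ± 0.20 with naproxen.

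Of the cysteine breakdown and sulfur oxidation list 10 of 12 genes were measured. On each diet 8 were above control, with medians of 0.22 with NO-naproxen and 0.15 with naproxen. After quantile normalization 7 were above control on each diet, with medians of 0.08 with NO-naproxen and 0.09 with naproxen. After median centring 10 were above control with NO-naproxen (median 0.29) and 9 with naproxen (median 0.27). Centring put 57.9% of all probe sets above control with NO-naproxen and 59.2% with naproxen. Suox, the sulfite oxidase of mitochondria, measured 1704 to 1898 with NO-naproxen, 1546 to 1887 with naproxen and 1413 to 1590 in controls. The NO-naproxen livers lay above every control, as for 2% of all probe sets, and the log2 difference was 0.26 ± 0.14 (limma adjusted p = 0.469). Fmo1, a flavin monooxygenase that oxidises hypotaurine to taurine in mouse and human, measured 682.9 to 1528 with NO-naproxen, 1147 to 1411 with naproxen and 741.2 to 1022 in controls. Its naproxen livers lay above every control, as for 2.09% of all probe sets, with a log2 difference of 0.41 ± 0.22 (adjusted p = 0.418). The NO-naproxen livers overlapped controls for Fmo1. Agxt2, a mitochondrial aminotransferase, had log2 differences of 0.32 ± 0.17 with NO-naproxen and 0.38 ± 0.17 with naproxen, and Tst, the sulfurtransferase rhodanese, -0.01 ± 0.18 with NO-naproxen and -0.22 ± 0.18 with naproxen. None of these 4 passed over all probe sets.

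Of the list of genes that use or move taurine, which leaves out Slc6a6, 7 of 9 were measured. Of these, 4 were above control with NO-naproxen (median 0.00) and 3 with naproxen (median -0.04). After quantile normalization 3 were above control on each diet. After median centring, 6 were above control with NO-naproxen and 7 with naproxen (median 0.07 on each diet), so these counts turned with centring. Centring raised all probe sets too, to 57.9% above control with NO-naproxen (median 0.07) and 59.2% with naproxen (median 0.08). Slc6a13, a carrier that takes up taurine in mouse liver, measured 1319 to 2386 with NO-naproxen, 1192 to 1725 with naproxen and 1016 to 1812 in controls. Its log2 difference was 0.22 ± 0.23 with NO-naproxen and 0.12 ± 0.23 with naproxen. Slc10a1, which takes up conjugated bile salts, had -0.11 ± 0.17 with NO-naproxen and -0.04 ± 0.17 with naproxen, and Pter, which splits N-acetyltaurine in mice, 0.33 ± 0.18 with NO-naproxen and 0.15 ± 0.18 with naproxen. Slc16a6, in the olfactory receptor range, had 0.05 ± 0.20 with NO-naproxen and 0.18 ± 0.20 with naproxen. Baat, the enzyme that joins taurine or glycine to bile acids and a gene of this list named after its values were seen, had 0.00 ± 0.18 with NO-naproxen and -0.07 ± 0.18 with naproxen.

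Glutathione, the other main use of cysteine, was represented by 16 of 17 genes, with 12 above control on each diet and medians of 0.07 with NO-naproxen and 0.03 with naproxen. After quantile normalization 8 were above control on each diet, and after median centring 13. Ggct, which degrades gamma-glutamyl peptides, measured 73.7 to 101 with NO-naproxen, 61.05 to 89.5 with naproxen and 57.8 to 75.2 in controls, and its log2 difference was 0.35 ± 0.16 with NO-naproxen and 0.22 ± 0.16 with naproxen. Anpep, a peptidase of glutathione turnover, had 0.35 ± 0.19 with NO-naproxen and 0.16 ± 0.19 with naproxen. The cystine carrier Slc7a11 and Chac2 lay in the olfactory receptor range, with -0.14 ± 0.24 with NO-naproxen and -0.38 ± 0.24 with naproxen for Slc7a11 and 0.29 ± 0.18 with NO-naproxen and 0.00 ± 0.18 with naproxen for Chac2.

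Pyridoxal phosphate is the cofactor of Csad, Cbs and Cth. Of 6 genes listed for its supply 4 were measured, 2 above control with NO-naproxen and 1 with naproxen. After quantile normalization 2 were above control on each diet, and after median centring 2 with NO-naproxen and 3 with naproxen. Pdxk, pyridoxal kinase, measured 1177 to 1786 with NO-naproxen, 996 to 1419 with naproxen and 1425 to 1748 in controls. With naproxen all 4 livers lay below all controls, as 2.4% of probe sets did, and the log2 difference was -0.41 ± 0.17 (limma adjusted p = 0.386). With NO-naproxen it was -0.11 ± 0.17 with overlapping groups. Plpbp, a pyridoxal phosphate binding protein, had 0.33 ± 0.18 with NO-naproxen and 0.28 ± 0.18 with naproxen, Aox1 -0.12 ± 0.18 with NO-naproxen and -0.06 ± 0.18 with naproxen, and Alpl, the alkaline phosphatase that frees pyridoxal, 0.08 ± 0.26 with NO-naproxen and -0.06 ± 0.26 with naproxen.

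**Figure D3:**
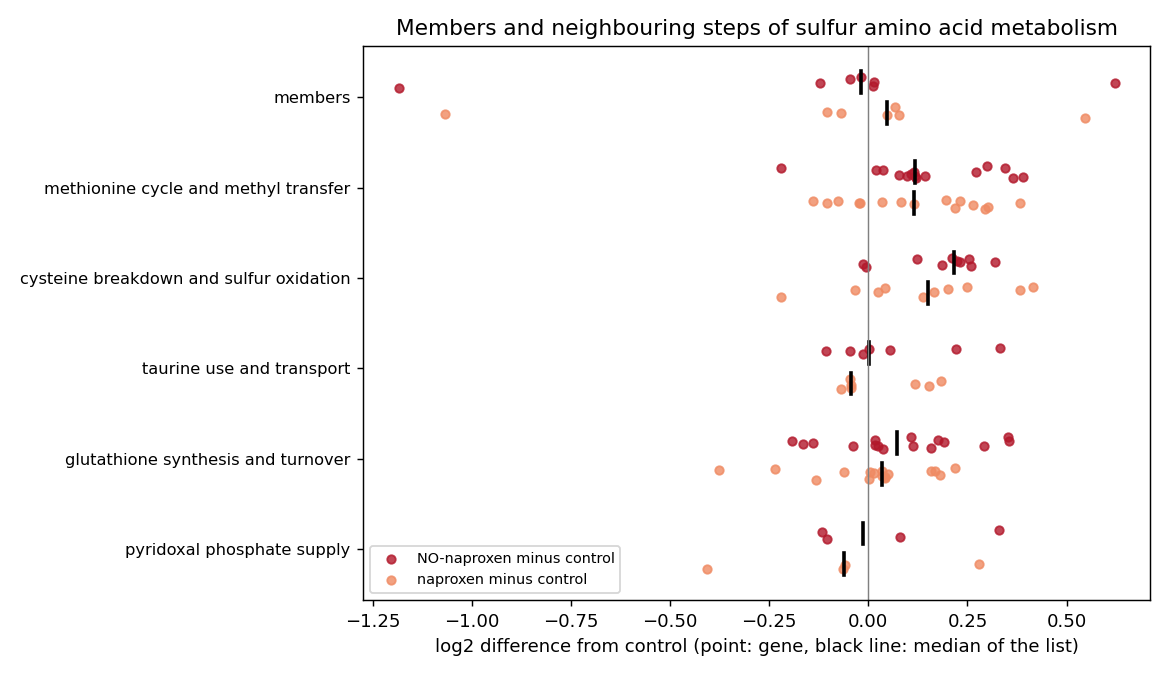
Log2 difference from control of each measured gene, by list, with NO-naproxen above naproxen in each row; points are genes and black lines are medians. The Csad points, at -1.18 with NO-naproxen and -1.07 with naproxen, lie lower than those of all other genes drawn, and the Slc6a6 points, at 0.62 with NO-naproxen and 0.55 with naproxen, lie highest.

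The genes whose level followed Csad most closely over the 12 livers were sought among 9832 other genes with a mean above the olfactory receptor range. They were Dusp1, a phosphatase of MAP kinases (Pearson's r = 0.86, rho = 0.73), Rrp9, a protein of the small nucleolar RNA complex (0.84 and 0.72), Rell2 (0.83 and 0.82), Nceh1, a cholesteryl ester hydrolase (0.82 and 0.71), and Rtn4rl2 (0.81 and 0.80). These values include the difference between diets by which Csad was chosen and are a description. Dusp1 had log2 differences from control of -1.38 with NO-naproxen and -1.39 with naproxen, and Rell2 had -0.32 with NO-naproxen and -0.36 with naproxen. Dusp1 was at 10.45 in NO-naproxen replicate 2 and 10.37 in naproxen replicate 4. These livers were the highest of their drug groups for Dusp1 and for Csad alike. Among controls the match failed, as control replicate 4 had the highest Dusp1, at 11.37, and the lowest Csad, at 10.04. Dusp1 was not among the genes named in the closing section as most like Csad within diets.

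**Figure D4:**
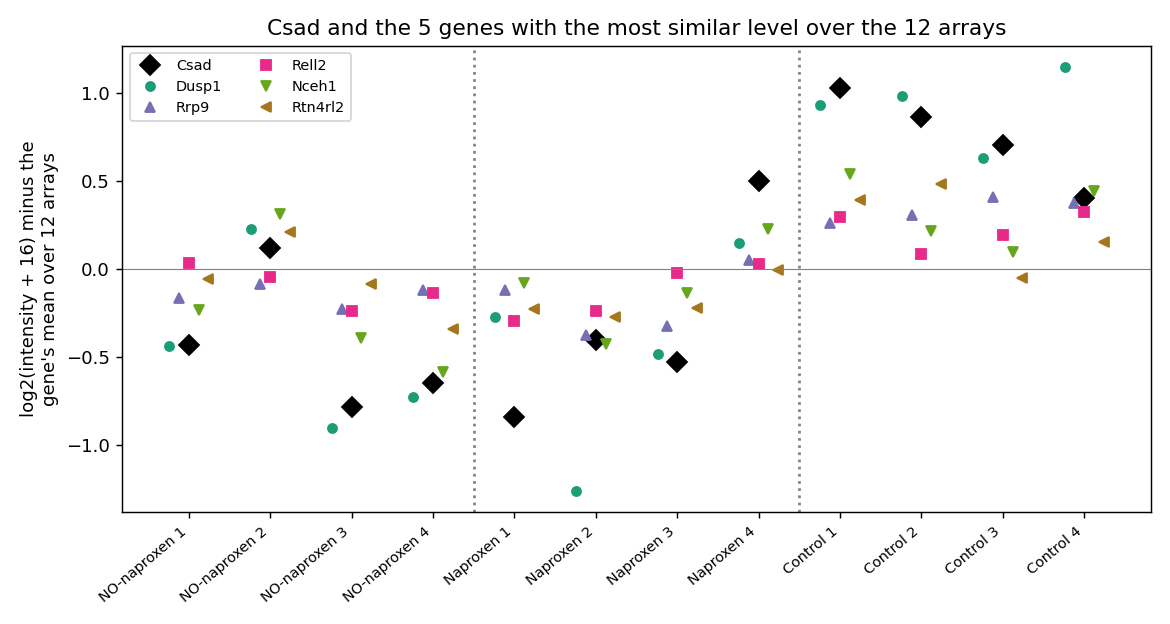
Level of Csad and of the 5 most similar genes in each liver, as log2(intensity + 16) minus the gene's mean over the 12 arrays; columns are arrays grouped by diet and symbols are genes. Dusp1 lies lower in every drug-fed liver than in all controls, and NO-naproxen replicate 2 and naproxen replicate 4 have the highest Csad of their groups.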

How the data were processed

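Total liver RNA was freed of ribosomal RNA and biotin-labelled, per the labels' protocols. The authors deposited linear probe set intensities. Per the submitters' processing notes the software was Affymetrix Expression Console 1.1.1, with rn4 as build. The method of summary and normalization was not given in the sources used here. Symbols came from the platform annotation: 13327 of 19418 probe sets had 1 symbol, 620 several and 5471 none, and 13232 matched the RefSeq gene table by Entrez identifier. Only the 2 promoter windows carry coordinates, in GRCr8, which is not the build of the arrays. Because the intensities were linear, 16 was added before log2, so fold changes understate those of dim probe sets. The arrays' number limits precision.

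All 12 arrays entered 1 fit of limma 3.58.1 (R 4.3.3, 2-sided) with diet as the only term and Benjamini-Hochberg adjustment over all probe sets. The olfactory receptor range ends at 6.44 log2 units, the 95th percentile of 970 olfactory and vomeronasal receptor probe sets. Correlations used 13824 exact arrangements within diets. The members and lists were chosen with earlier results of these data known. Named genes were the members, up to 4 per list with the smallest unadjusted p against control, and the 5 most like Csad. The labels call the arrays biological replicates, and p-values measure the spread between these rats. The fit was tested on simulated data with independent noise in each probe set and array. Such data lack the differences in spread between these arrays, so that test cannot gauge calls arising from them. Alternatives are given in the closing section. Plots came from matplotlib 3.10.9 (Python 3.11.15).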

Additional observations from a re-analysis of the deposited data

How the results depend on the processing

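Against control, the Csad difference kept its sign under each of 19 alternatives per drug, from -1.38 to -1.07 with NO-naproxen and from -1.34 to -0.89 with naproxen. Csad was chosen for that sign in these same arrays, so keeping it is a description and not a test. Slc6a6 kept its sign too, from 0.46 to 0.70 with NO-naproxen (adjusted p from 0.0675 to 1.000) and from 0.39 to 0.66 with naproxen (0.0866 to 1.000). With the replicate number as a block the Csad difference was -1.18 with NO-naproxen and -1.07 with naproxen, as without it, with 0 adjusted calls. Probe sets past the study's criterion numbered 820 with NO-naproxen, 1193 with naproxen and 120 between the drugs under it. Correlations of same-numbered livers were 0.04 to 0.48 for NO-naproxen and control, -0.38 to 0.33 for naproxen and control and -0.37 to 0.29 between the drugs. A liver correlated best with its own number in 3 of 8, 0 of 8 and 1 of 8 cases in the same order of comparisons, and the numbers were not taken as pairs. Each member had 1 probe set, so averaging several was not run.

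The other 5 members, all near 0, changed sign in places. NO-naproxen minus control turned to -0.0024 after quantile normalization, -0.0037 with array spread as covariate, -0.092 with array weights and -0.011 without the 2 arrays of narrowest spread for Cth, to -0.096 with array weights for Cdo1, and after median centring to 0.022 for Cbs and 0.050 for Bhmt. Naproxen minus control turned after centring to 0.048 for Cbs and 0.010 for Mat1a. NO-naproxen minus naproxen for Cbs turned to -0.029 after quantile normalization, -0.026 after centring and -0.0011 with array weights. The cause was not tested.

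Leaving out 1 liver at a time, NO-naproxen minus control ranged from -0.073 to 0.11 for Cdo1, -0.068 to 0.11 for Cth and -0.069 to 0.069 for Bhmt. Naproxen minus control ranged from -0.011 to 0.16 for Cdo1 and -0.023 to 0.096 for Cth. NO-naproxen minus naproxen ranged from -0.30 (without NO-naproxen replicate 2) to 0.16 (without naproxen replicate 4) for Csad, -0.14 to 0.033 for Cdo1, -0.12 to 0.059 for Cth, -0.032 to 0.067 for Cbs, -0.098 to 0.089 for Mat1a and -0.14 to 0.0016 for Bhmt. Correlations with Csad of deviations from diet means turned without NO-naproxen replicate 2 and naproxen replicate 4, with those means not taken anew. They became -0.27 for Cdo1, -0.41 for Cth, -0.29 for Cbs, 0.15 for Slc6a6 and -0.18 for Mat1a. That of Cth also turned after quantile normalization, to -0.17.

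Counts of probe sets past the study's criterion, 738 for NO-naproxen minus control, 1135 for naproxen minus control and 111 for NO-naproxen minus naproxen, moved by over 1.5 times under several alternatives. With NO-naproxen the count was 154 with 64 added before log2, 236 with array spread as covariate, 2527 with array weights and 215 without the 2 narrowest arrays. With naproxen it was 191 with 64 added, 332 with the covariate, 752 without the dimmest 30% and 291 without the narrowest arrays. Between the drugs it was 299 with 1 added, 8 with 64 added, 40 without the dimmest 30% and 304 with array weights. Leaving out 1 liver gave 284 (without NO-naproxen replicate 2) to 2570 (without control replicate 2) with NO-naproxen, 574 (without control replicate 4) to 2973 (without control replicate 2) with naproxen, and 98 (without naproxen replicate 3) to 331 (without naproxen replicate 4) between the drugs. Adjusted calls, 0 in each comparison, became 2 with array weights for NO-naproxen and with 1 liver out spanned 0 to 4 with NO-naproxen (4 without control replicate 2), 0 to 3 with naproxen (3 without control replicate 1) and 0 to 0 between the drugs. Members past the criterion, as deposited, numbered 2 with NO-naproxen and 1 with naproxen, where 3.8% and 5.85% of all probe sets passed. Both counts include Csad, which was chosen by these values, so they are not a test of the members. They became 1 with NO-naproxen after quantile normalization, with the covariate and without the narrowest arrays, and 2 with naproxen after centring. With 1 liver out they spanned 1 to 2 on each drug. With 4 livers per diet, the median SE of a difference was 0.21 log2 units.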

Other observations

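Within diets, after each diet's mean was removed, the genes most like Csad over the 12 livers were Pigu (Pearson's r = 0.94), Gorasp2 (0.91), Pcnx3 (0.90), Cptp (0.89) and Gga3 (0.89), none of them among the 5 most similar before the means were removed. They are the top 5 of 9832 genes and a description. Their log2 differences from control were 0.45, 0.24, 0.16, -0.06 and 0.03 with NO-naproxen and 0.40, 0.01, 0.05, -0.04 and -0.15 with naproxen. In no member did a single liver stand apart from the other 3 of its diet by Dixon's test at the 95% level (0 of 21 groups).

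Markers of the liver's zones lay within overlapping ranges. The 3 pericentral markers measured summed to 13500 to 19410 with NO-naproxen, 13960 to 19030 with naproxen and 13990 to 19800 in controls. The 5 periportal markers summed to 29770 to 35280 with NO-naproxen, 28910 to 31480 with naproxen and 30180 to 32460 in controls. The 2 skeletal muscle markers measured, Ckm and Acta1, were both above the olfactory receptor range and summed to 437.6 to 498.5 with NO-naproxen, 368 to 501.7 with naproxen and 351.7 to 430.6 in controls. Ckm had log2 differences from control of -0.07 with NO-naproxen and -0.03 with naproxen. Acta1 had log2 differences from control of 0.41 ± 0.18 (SE) with NO-naproxen and 0.22 ± 0.18 with naproxen, neither past limma (adjusted p = 0.468 with NO-naproxen and 0.575 with naproxen). With NO-naproxen all livers lay above every control for Acta1, as for 2% of all probe sets, and for the muscle sum. With naproxen Acta1 overlapped controls.

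The markers of other liver cells summed in the text had these log2 differences from control. Among all probe sets, 2% lay above every control with NO-naproxen and 2.09% with naproxen. Of the stellate cell and pericyte markers, Rgs5 lay above every control on both diets, with 0.58 with NO-naproxen and 0.71 with naproxen. The other 4 were Dcn with 0.18 with NO-naproxen and 0.52 with naproxen, Col3a1 with 0.14 with NO-naproxen and 0.17 with naproxen, Lrat with 0.41 with NO-naproxen and 0.23 with naproxen, and Pdgfrb with 0.28 with NO-naproxen and 0.15 with naproxen, each with overlapping groups. Of the 2 endothelial markers, Oit3 lay above every control, with 0.29 with NO-naproxen and 0.42 with naproxen, and Clec4g overlapped controls, with 0.06 with NO-naproxen and 0.54 with naproxen. Of the 2 cholangiocyte markers, Epcam, in the olfactory range, had 0.32 with NO-naproxen and 0.46 with naproxen. With naproxen Epcam lay above every control, and with NO-naproxen it overlapped controls. Krt19 overlapped controls, with -0.23 with NO-naproxen and -0.04 with naproxen. The 6 macrophage markers all overlapped controls. Ptprc had 0.67 with NO-naproxen and 0.41 with naproxen, Csf1r 0.50 with NO-naproxen and 0.35 with naproxen, and Vsig4 0.44 with NO-naproxen and 0.42 with naproxen. Marco had 0.28 with NO-naproxen and 0.31 with naproxen, Clec4f 0.17 with NO-naproxen and 0.07 with naproxen, and Cd68 -0.09 with NO-naproxen and 0.23 with naproxen. Rgs5 with naproxen and Ptprc with NO-naproxen passed the study's criterion. As deposited, 0.875% of all probe sets did so in the higher direction with naproxen and 1.78% with NO-naproxen. None of these markers passed limma after adjustment over all probe sets.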
